A study of Mus musculus with 6 samples.

Results

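Protocadherin transcripts were examined in the hippocampus, which is involved in learning and memory, in 6 RNA sequencing libraries of young mice. Of these, 3 came from mice given multiple injections of lidocaine and 3 from control mice, with mice assigned to the groups at random. Lidocaine, used for local anaesthesia, acts by closing off sodium channels of nerve cells, and the study asked how repeated exposure to it alters hippocampal gene expression. No strain, sex, exact age, dose or number of injections was given for these libraries, and neither was whether controls received a vehicle. Old mice of the series were not analysed here. The members were all rows of the deposited gene table whose symbol starts with Pcdh, 48 of 22050 rows. Of these, 37 belong to the alpha, beta and gamma clusters and 11 are non-clustered.

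Protocadherins are the largest family of cadherin-like adhesion proteins, with extracellular cadherin repeats that bind the same protein on a neighbouring cell. The alpha, beta and gamma genes lie side by side in the genome, and single neurons express different combinations of them, chosen through promoter choice that depends on CTCF and cohesin. These combinations give neurons a surface identity used in dendrite self-avoidance and in wiring. In the alpha and gamma clusters each variable first exon is joined to constant exons shared by the whole cluster, whereas each beta gene is a separate single-exon gene. The non-clustered delta protocadherins are expressed in regional patterns and act in axon growth and synapse formation.

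No protocadherin was called higher or lower with lidocaine. Called means a Benjamini-Hochberg-adjusted p under 0.05 in edgeR's quasi-likelihood test over all tested genes. Of the 48 rows, 47 passed the count filter and were tested, and 0 were called, against 2 of 13408 genes over the whole table (0.0149%). The adjusted p of every tested member was at least 0.995 in edgeR. At an unadjusted p under 0.05, edgeR gave 4 members higher and 1 lower, 5 of 47 in all, where 4.36% of all tested genes had such a p, 2% higher and 2.36% lower. DESeq2, run as an alternative, also called 0 members, against 0.172% of all genes, and gave the same 5 members an unadjusted p under 0.05, against 3.93% of all genes. The third tool, limma-voom, called 0 members and 0.0224% of all genes. All 5 are clustered genes, Pcdhb3, Pcdhga11, Pcdhgb6 and Pcdhgc3 with higher and Pcdhga1 with lower values in lidocaine libraries. The 95% interval of the fold change lay within 1.5-fold in either direction for 30 of 47 members, or 63.8%, close to the 63.6% of all tested genes.

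Every lidocaine library was deeper than every control library, with 16013017 to 16984995 estimated counts per lidocaine library and 13887604 to 15990264 per control library. CPM and the tests take this total into account. The labels name the mouse, but all 22050 rows carry rat Ensembl identifiers, so genes are named as the table names them and no coordinates are given. Which species' annotation stands behind the values could not be settled, and counts of closely related cluster members may depend on it. The labels do not say whether libraries are of different animals, and the p-values reflect spread among these libraries, which may be technical. In whole tissue, fewer cells of a type and less RNA per cell cannot be told apart. As a check of the tissue, all 6 markers of hippocampal and other neurons (Slc17a7, Neurod6, Prox1, Rbfox3, Snap25 and Grin2b) were tested, with summed levels of 4676 to 4985 CPM (counts scaled to the same library total) in lidocaine and 4435 to 4609 CPM in control libraries. Prox1, which marks dentate granule cells, was at 0 in lidocaine libraries 1 and 2 and in control library 1. It had 1.39 CPM in lidocaine library 3 and 1.31 and 1.56 CPM in control libraries 2 and 3. At these levels Prox1 could not serve as a check for granule cells. The 7 oligodendrocyte markers, all with negative fold changes, summed to 7407 to 10179 CPM in lidocaine and 10364 to 11972 CPM in control libraries. The 7 meningeal fibroblast markers found in the table summed to 107 to 142 CPM in lidocaine and 89.9 to 102 CPM in control libraries. Of the 6 tested ones 5 had positive fold changes, and Slc13a4 was at 0 in all 6 libraries. The ranges of these 3 lists did not overlap between the groups. Those of the interneuron, oligodendrocyte precursor, astrocyte, microglia, endothelial and pericyte, choroid plexus and blood lists did overlap. Among single tested genes, 10.1% had groups that did not overlap in CPM. Of the 6 neuron markers, 4 had positive and 2 negative fold changes. Most of their sum was Slc17a7, which overlapped by itself, at 3236 to 3579 CPM in lidocaine and 2963 to 3245 CPM in control libraries. Of the meningeal fibroblast markers, Igf2 and Aldh1a2 were separated by themselves and the other tested ones overlapped. The part of the 3 lists without overlap in the values of single protocadherins was not tested. Choroid plexus markers were low, at 3.06 to 6.73 CPM in lidocaine and 3.97 to 11.6 CPM in control libraries.

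Fractional counts were common in the family. A fractional count (any value that is not a whole number) means that the deposited value is an estimate. In it, reads may have been divided between similar rows, so single values of such rows are uncertain. At least 1 of the 6 libraries had a fractional count in 34 of 48 rows, or 70.8%, against 30.4% of all rows of the table. By group, this held for 3 of 3 alpha rows, 12 of 16 beta rows, 11 of 18 gamma rows and 8 of 11 non-clustered rows. Within the gamma cluster it held for 4 of 11 A-type, 6 of 6 B-type and 1 of 1 C-type rows. Among tested rows the shares were 72.3% of protocadherins and 44.8% of all genes. Among clustered rows, 10 tested ones had only whole counts, and 3 of the 5 members at an unadjusted p under 0.05, Pcdhb3, Pcdhga11 and Pcdhga1, were among them.

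Summed levels of the groups differed little between lidocaine and control libraries. The alpha rows summed to 284, 276 and 296 CPM in lidocaine libraries 1 to 3, against 266, 279.5 and 288 CPM in control libraries 1 to 3. The gamma rows summed to 435, 440.1 and 466 CPM in lidocaine libraries and to 414, 429 and 449 CPM in control libraries. In both clusters the 2 groups overlapped. The beta rows averaged 140.4 ± 13.1 CPM in lidocaine and 131 ± 1.42 CPM in control libraries (SD, n = 3 each), and lidocaine library 2, at 126 CPM, lay below all 3 controls. Non-clustered rows averaged 890.3 ± 39.4 CPM in lidocaine and 906 ± 34.8 CPM in control libraries (SD, n = 3 each). As log2 ratios of lidocaine over control these sums came to 0.04 for alpha, 0.10 for beta, 0.05 for gamma and -0.02 for non-clustered rows. With 1 library left out they ranged from 0.0093 to 0.07 for alpha, 0.04 to 0.17 for beta, 0.02 to 0.08 for gamma and -0.06 to 0.0038 for non-clustered rows. No test was made of these sums, because the members were chosen with earlier results known.

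**Figure D1:**
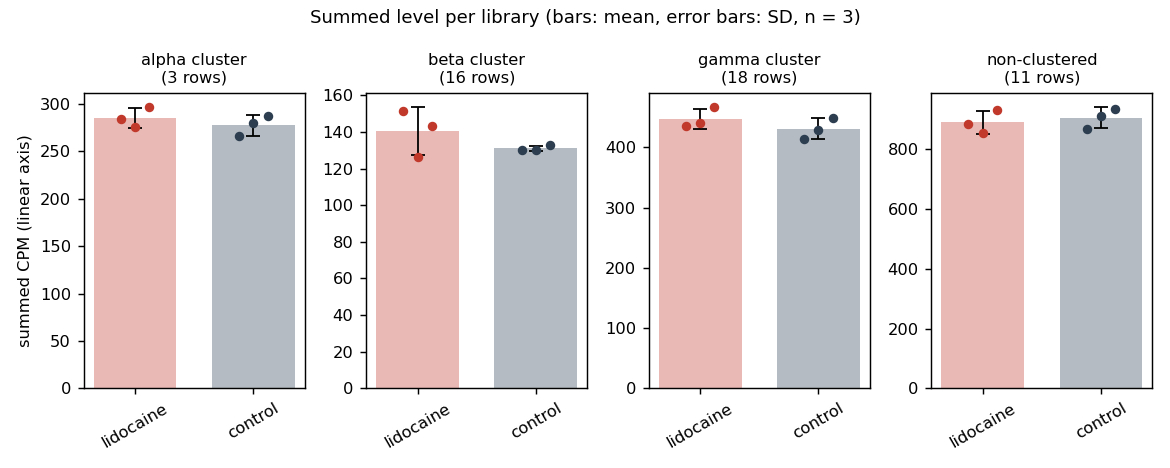
Summed level of each protocadherin group, in CPM (scaled to the library total) on linear axes from 0. Points are the 3 libraries of each group, bars their mean and error bars the SD, and the lidocaine and control points overlap in every panel.

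The median log2 fold change was 0.05 over 3 alpha, 0.08 over 15 beta and 0.08 over 18 gamma rows tested, and -0.08 over 11 non-clustered rows. The median over all 13408 tested genes was -0.00029. Without lidocaine library 1 the alpha median was -0.05 and the beta median -0.0022, so their sign rested on that library. Fold changes were positive for 24 and negative for 12 of the 36 clustered rows tested. Among the 11 non-clustered rows they were positive for 4 and negative for 7, while 49.9% of all tested genes had a positive one. These counts describe the members only and were not tested as lists.

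Among the non-clustered protocadherins, levels per transcript length (FPKM, as deposited) spanned a wide range and followed nearly the same order in both groups. Pcdh20 was highest in both, and Pcdh12, first described in endothelial cells, was lowest. The next places were taken by Pcdh8, Pcdh9, Pcdh19 and Pcdh10, with Pcdh8 above Pcdh9 in lidocaine means and below it in control means. Library values of Pcdh20, Pcdh9 and Pcdh8 overlapped in lidocaine libraries, and their order there is a description only. For every non-clustered gene the lidocaine and control libraries overlapped in CPM, 0 of 11 being separated, where 10.1% of all tested genes had groups that did not overlap.

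The delta-1 members are Pcdh9, Pcdh7 and Pcdh1, whose intracellular part carries a motif that binds protein phosphatase 1. Pcdh9 had 24.52, 22.54 and 26.01 FPKM in lidocaine libraries 1 to 3, against 28.7, 22.76 and 25.35 FPKM in control libraries 1 to 3. The highest Pcdh9 value was that of control library 1, and its log2 fold change was -0.09 ± 0.10 (SE), with a 95% interval from -0.31 to 0.14. Pcdh7 had 11.32, 9.69 and 8.8 FPKM with lidocaine, against 11.77, 9.31 and 10.12 FPKM in controls. In both groups library 1 was the highest for Pcdh7, and the log2 fold change was -0.08 ± 0.12. Pcdh1 was lower per length, at 2.79, 1.95 and 2.9 FPKM with lidocaine and 2.23, 2.65 and 2.43 FPKM in controls. Lidocaine library 2 was the lowest for Pcdh1 and the other two lidocaine libraries were the highest, giving a log2 fold change of 0.05 ± 0.17. The delta-1 sum averaged 223 ± 14.4 CPM in lidocaine and 234 ± 24.1 CPM in control libraries (SD, n = 3 each). In humans PCDH9 is also transcribed by oligodendrocytes, whose summed markers were lower in these lidocaine libraries, and their part in Pcdh9 was not tested.

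The delta-2 members are Pcdh8, Pcdh10, Pcdh17, Pcdh18 and Pcdh19. Pcdh8, also called arcadlin, is induced by neuronal activity in the rat hippocampus and promotes the internalisation of N-cadherin at synapses. It had 22.68, 26.6 and 25.59 FPKM in lidocaine libraries 1 to 3, against 18.17, 22.88 and 23.53 FPKM in control libraries 1 to 3. Lidocaine libraries 2 and 3 were above all controls and lidocaine library 1 lay between control libraries 1 and 2. The log2 fold change was 0.20 ± 0.11 with an interval from -0.06 to 0.46 (edgeR unadjusted p = 0.113), the smallest p among non-clustered members.

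Pcdh19, an X-linked gene whose mutation causes an epilepsy in humans, had 18.67, 18.64 and 18.26 FPKM with lidocaine, against 14.78, 20.67 and 19.75 FPKM in controls. The 3 lidocaine libraries lay inside the range of the controls, which was widened by the low control library 1. Its log2 fold change was -0.01 ± 0.12, and the sign differed between tools. Pcdh10, which takes part in removing excitatory synapses in mouse neurons, had 19.34, 14.5 and 17.03 FPKM with lidocaine, against 18.45, 17.45 and 19.11 FPKM in controls. Lidocaine library 1 was the highest and lidocaine library 2 the lowest of the 6, and the log2 fold change was -0.13 ± 0.10. Pcdh17, which acts in presynaptic assembly in mice, had 8.86, 9.4 and 11.2 FPKM with lidocaine, against 8.61, 9.56 and 10.14 FPKM in controls, a log2 fold change of 0.04 ± 0.11. Pcdh18 was the lowest of the delta-2 members, at 1.36, 1.43 and 1.18 FPKM with lidocaine and 1.3, 1.53 and 1.42 FPKM in controls. Its log2 fold change was -0.11 ± 0.13, and its counts were whole in all 6 libraries. The delta-2 sum averaged 426 ± 12.6 CPM in lidocaine and 416 ± 43.3 CPM in control libraries (SD, n = 3 each).

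The remaining non-clustered members are Pcdh20, Pcdh15 and Pcdh12. Pcdh20 had 25.1, 23.96 and 28.36 FPKM with lidocaine, against 25.58, 28.84 and 26.94 FPKM in controls. Its counts were whole, and its log2 fold change of -0.09 ± 0.08 had an interval from -0.28 to 0.11. Pcdh15, a tip-link protein of inner ear hair cells that is also transcribed in oligodendrocyte precursors, had 2.06, 2.18 and 1.58 FPKM with lidocaine, against 1.94, 1.89 and 1.72 FPKM in controls. Its log2 fold change was 0.06 ± 0.15, with lidocaine library 3 the lowest and lidocaine library 2 the highest of the 6. Oligodendrocyte precursor markers summed to 549 to 579 CPM in lidocaine and 545 to 572 CPM in control libraries. Their fold changes were positive for 2 and negative for 3. In CPM, lidocaine libraries were all above the controls for Pdgfra and Cspg4 and all below them for Olig1 and Olig2. Sox10 overlapped. Over all tested genes, 10.1% had groups that did not overlap. The sum of these markers joins opposite directions, and their part in Pcdh15 was not tested. Pcdh12 was counted 21, 26 and 33 times with lidocaine, against 25, 35 and 37 times in controls. The groups overlapped, and at these low counts the log2 fold change of -0.42 ± 0.31 had a wide interval, from -1.14 to 0.31. Endothelial and pericyte markers summed to 281 to 307 CPM in lidocaine and 281 to 367 CPM in control libraries, and their part in Pcdh12 was not tested. Of the 11 non-clustered members, Pcdh12 alone had an interval that reached beyond 1.5-fold.

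**Figure D2:**
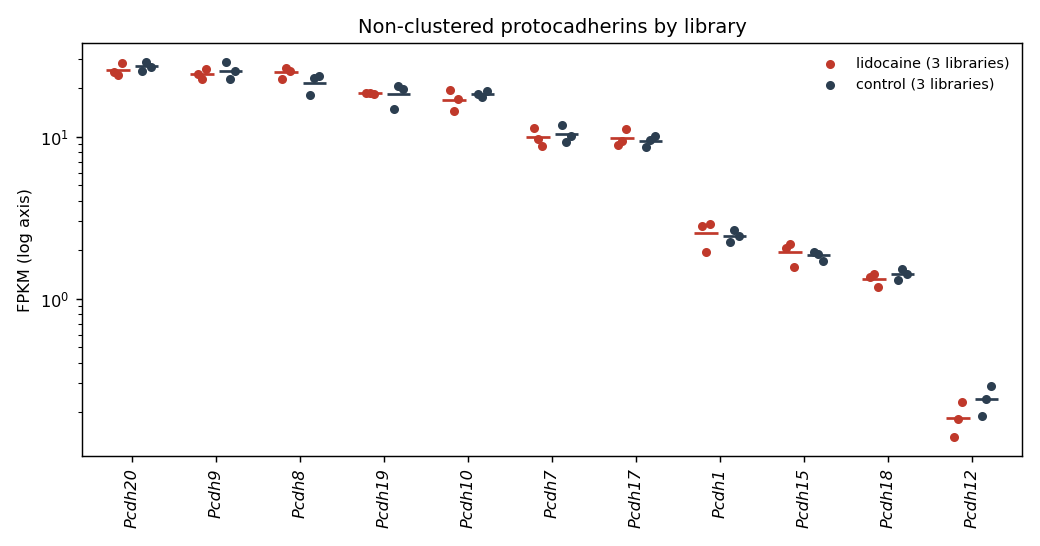
FPKM of the 11 non-clustered protocadherins in each library, on a log axis. Points are libraries and short lines group means, and the red lidocaine and dark control points of each gene overlap, from means of 25.8 FPKM with lidocaine and 27.1 FPKM in controls for Pcdh20 to 0.183 and 0.24 FPKM in the same order for Pcdh12.

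The alpha cluster was represented by 3 rows, of which Pcdha13 held most of the counts. It was counted 4412, 4134 and 4463 times in lidocaine libraries 1 to 3, against 3524, 4187 and 3684 times in control libraries 1 to 3. That was 93.0 ± 1.27% of the alpha counts in lidocaine and 92.4 ± 1.12% in control libraries (SD, n = 3 each). In CPM the groups overlapped, with a log2 fold change of 0.05 ± 0.06 and an interval from -0.09 to 0.19. With 29.6 ± 1.12 FPKM in lidocaine and 28.4 ± 1.27 FPKM in control libraries (SD, n = 3 each), the Pcdha13 row was the highest of all 48 rows per length. Whether this row also holds reads of the constant exons shared by the alpha cluster was not tested, so its rank may not be that of 1 gene.

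The other 2 alpha rows share the symbol Pcdha4 and were kept apart by their identifiers. Row ENSRNOG00000047174 had 3.27, 2.46 and 2.15 FPKM with lidocaine, against 3.52, 2.24 and 2.97 FPKM in controls, and row ENSRNOG00000050378 had 2.81, 2 and 2.4 FPKM with lidocaine, against 2.11, 2.18 and 2.54 FPKM in controls. Both overlapped between groups, with log2 fold changes of -0.16 ± 0.22 and 0.07 ± 0.17. Dividing counts by FPKM gives the transcript length behind each row, and that of Pcdha13 was 2.2 times the median of the gamma rows, whereas the Pcdha4 rows came to 0.985 and 0.98 times. The 3 alpha rows had fractional counts in lidocaine library 1 only, and their sum was whole, within 0.005 counts, in all 6 libraries.

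Among the beta genes, Pcdhb3 stood highest in lidocaine libraries relative to controls. It was counted 188, 193 and 189 times in lidocaine libraries 1 to 3, against 133, 137 and 119 times in control libraries 1 to 3, all whole counts. In CPM this was 11.6 ± 0.51 with lidocaine and 8.77 ± 0.35 in controls (SD, n = 3 each), and every lidocaine library lay above every control. The log2 fold change was 0.41 ± 0.13, with an interval from 0.11 to 0.70 (edgeR unadjusted p = 0.0129, Benjamini-Hochberg-adjusted p = 0.995). With each library left out in turn it lay between 0.38 and 0.45, with an unadjusted p under 0.05 each time.

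The beta genes highest per length were Pcdhb19, at 3.97 ± 0.72 FPKM with lidocaine and 3.78 ± 0.44 FPKM in controls, and Pcdhb22, at 3.89 ± 0.43 FPKM with lidocaine and 3.56 ± 0.59 FPKM in controls (SD, n = 3 each). Their log2 fold changes were 0.06 ± 0.16 and 0.11 ± 0.16. Pcdhb9 had 12.8 ± 0.82 CPM with lidocaine and 12.4 ± 1.62 CPM in controls (SD, n = 3 each), and its log2 fold change was 0.04 ± 0.14. Pcdhb7 had 211.5, 178.9 and 229 counts with lidocaine, against 163, 170.3 and 149 counts in controls. In CPM its lidocaine library 2 lay below control library 1, and the log2 fold change was 0.22 ± 0.14. Pcdhb5, named after its values were seen, was separated in CPM as well, at 5.39, 5.63 and 7.14 CPM with lidocaine and 4.88, 5.22 and 5.33 CPM in controls. The gap between its groups was narrow, and its log2 fold change of 0.23 ± 0.18 had an interval from -0.19 to 0.66. Of the 15 beta rows tested, 11 had positive and 4 negative fold changes. Pcdhb1, with 0 to 4 counts per library, did not pass the filter and was not tested.

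**Figure D3:**
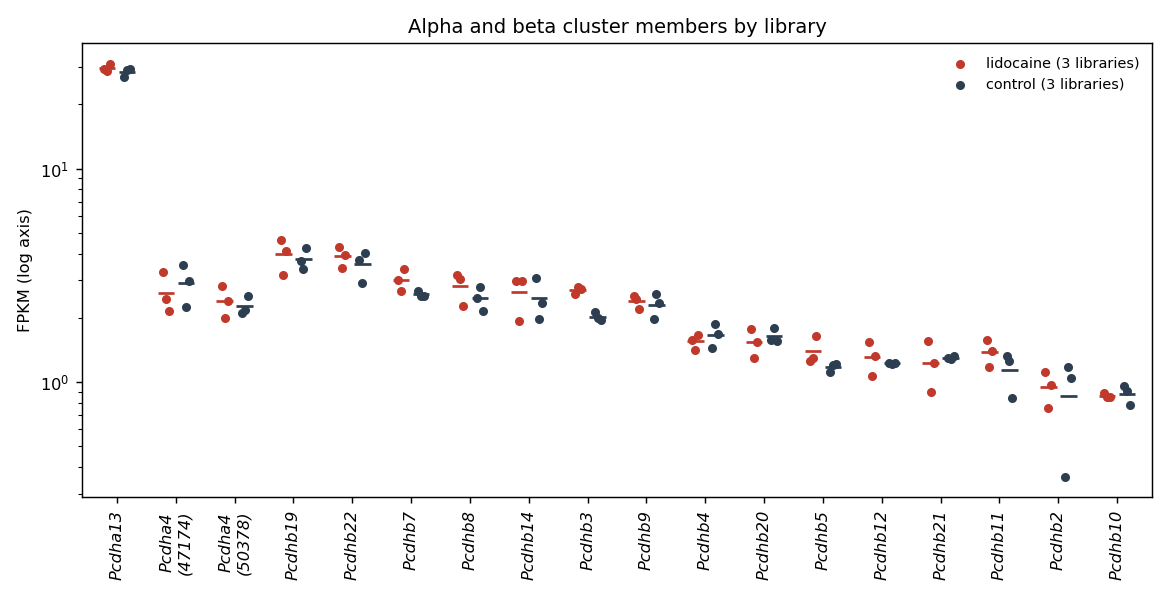
FPKM of the alpha and tested beta rows in each library, on a log axis, ordered by level within each cluster; the numbers under Pcdha4 are the last digits of the row identifiers. Points are libraries and short lines group means; Pcdha13 averages 29.6 FPKM with lidocaine and 28.4 FPKM in controls, and the Pcdhb3 lidocaine points all lie above its controls.

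The gamma cluster held 4 of the 5 members at an unadjusted p under 0.05, in opposite directions. These were 4 of 18 gamma rows tested, where 4.36% of all tested genes had such a p in edgeR. Pcdhga11 was counted 399, 485 and 456 times in lidocaine libraries 1 to 3, against 253, 345 and 302 times in control libraries 1 to 3, all whole. In CPM it had 23.5, 30.3 and 28.4 with lidocaine and 17.5, 21.6 and 21.7 in controls, so the groups did not overlap. The log2 fold change was 0.43 ± 0.14, with an interval from 0.12 to 0.75 (edgeR unadjusted p = 0.013). Without each library in turn it ranged from 0.34 to 0.54, and it missed an unadjusted p of 0.05 without lidocaine library 2.

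Pcdhga1, likewise with whole counts, was counted 148, 111 and 131 times with lidocaine, against 130, 248 and 190 times in controls. In CPM it had 8.71, 6.93 and 8.16 with lidocaine and 8.97, 15.5 and 13.7 in controls. Lidocaine values were all below the controls, but control library 1 lay close to lidocaine library 1. The log2 fold change was -0.68 ± 0.22, with an interval from -1.19 to -0.17 (edgeR unadjusted p = 0.0153). It ranged from -0.88 without control library 1 to -0.50 without control library 2, and without control library 2 or lidocaine library 2 its unadjusted p was not under 0.05.

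Pcdhgc3 is a C-type gamma gene, a class whose members resemble each other across clusters and which most neurons express, and it acts in dendrite branching of cortical neurons in mice. It had 41.9, 37.1 and 44.9 CPM with lidocaine, against 33.3, 34.95 and 34.7 CPM in controls. The groups did not overlap, with the control values close together, and the log2 fold change was 0.27 ± 0.10 (edgeR unadjusted p = 0.0236). Pcdhgc3 made up 9.23 ± 0.70% of the gamma counts in lidocaine and 7.98 ± 0.21% in control libraries (SD, n = 3 each). Whether its row also holds reads of the constant exons shared by the gamma cluster was not tested, so this share may not be that of 1 gene. Pcdhgb6, named after its values were seen, had 31.6, 24.9 and 32.6 CPM with lidocaine, against 24.8, 21.8 and 20.2 CPM in controls. Its lowest lidocaine library, library 2, nearly met control library 1, and the log2 fold change was 0.41 ± 0.14 (edgeR unadjusted p = 0.0171). Counts of Pcdhgc3 and Pcdhgb6 were fractional in all 6 libraries. Neither kept an unadjusted p under 0.05 without lidocaine library 1, lidocaine library 3 or control library 3, and Pcdhgc3 also lost it without control library 1. After Benjamini-Hochberg adjustment, edgeR's p was 0.995 for each of these 4 gamma genes.

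The gamma gene highest per length was Pcdhga7, with 10.17, 11.26 and 10.11 FPKM with lidocaine and 10.24, 12.23 and 12.54 FPKM in controls. Control libraries 2 and 3 were the highest of the 6, and its log2 fold change was -0.16 ± 0.10 (edgeR unadjusted p = 0.134). Pcdhga2 had 9.17, 7.4 and 10.87 FPKM with lidocaine and 8.53, 6.45 and 8.39 FPKM in controls, which overlapped, with a log2 fold change of 0.22 ± 0.17. Pcdhgb1 was the lowest gamma row, at 0.67 ± 0.50 FPKM with lidocaine and 0.71 ± 0.345 FPKM in controls (SD, n = 3 each). The A-type genes summed to 261 ± 4.28 CPM in lidocaine and 259 ± 15.2 CPM in control libraries. The B-type genes summed to 145 ± 10.3 CPM in lidocaine and 137 ± 3.95 CPM in control libraries (SD, n = 3 each for both types). Of the 18 gamma rows, 11 had positive and 7 negative fold changes. Along the cluster, in the order of the mouse gene table of RefSeq (GRCm38.p6), the most negative fold change, of Pcdhga1, was that of the first row, and Pcdhgc3 was the last row. Fold changes were negative for Pcdhga5, Pcdhga6 and Pcdhga7 and positive for the next 6 rows, Pcdhgb4 to Pcdhga10. After these they were -0.05 for Pcdhgb7, 0.43 for Pcdhga11 and -0.18 for Pcdhgb8. Of the rows from Pcdhga5 to Pcdhga10, Pcdhgb6 alone had an unadjusted edgeR p under 0.05. These signs were picked after their values were seen, and position along the cluster was not tested.

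**Figure D4:**
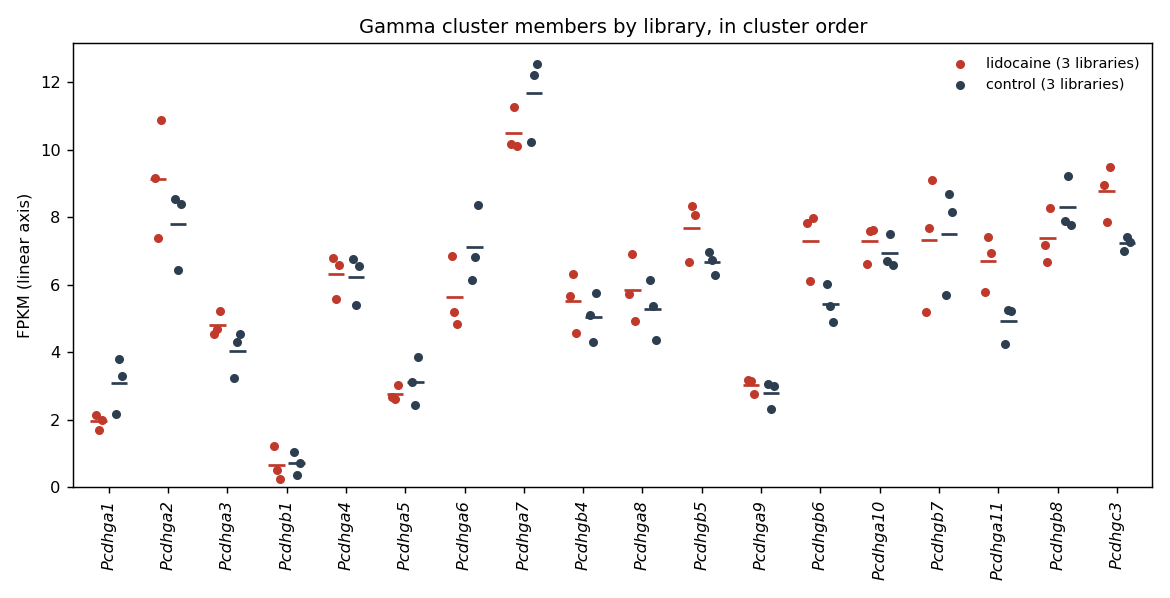
FPKM of the 18 gamma rows in each library, on a linear axis from 0, placed in the order of the same symbols in the mouse RefSeq table. Points are libraries and short lines group means; lidocaine points lie above all controls for Pcdhgb6, Pcdhga11 and Pcdhgc3 and below them for Pcdhga1.

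Over all 47 tested members, 5 had lidocaine values above all controls in CPM and 1 had them below, 6 of 47 or 12.8%. Among all tested genes the shares were 5.06% above and 5% below. The median coefficient of variation of CPM was 12.8% in lidocaine and 11.97% in control libraries for protocadherins, and 10.5% in lidocaine and 10.03% in control libraries for all tested genes. In clustered rows with fractional counts it was 15.8% in lidocaine and 12.5% in control libraries, and in those with whole counts 8.39% in lidocaine and 12.1% in control libraries. A further 4 rows that the table describes as protocadherins under other symbols were outside the rule, and their unadjusted edgeR p-values were 0.116 to 0.9901. All had negative log2 fold changes. These were -0.14 ± 0.25 for the row described as beta-7-like, -0.0019 ± 0.15 for beta-6-like and -0.05 ± 0.15 for beta-16-like. The row described as protocadherin-16-like had -0.57 ± 0.32. The beta sums and sign counts above leave out the beta-like rows.

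**Figure D5:**
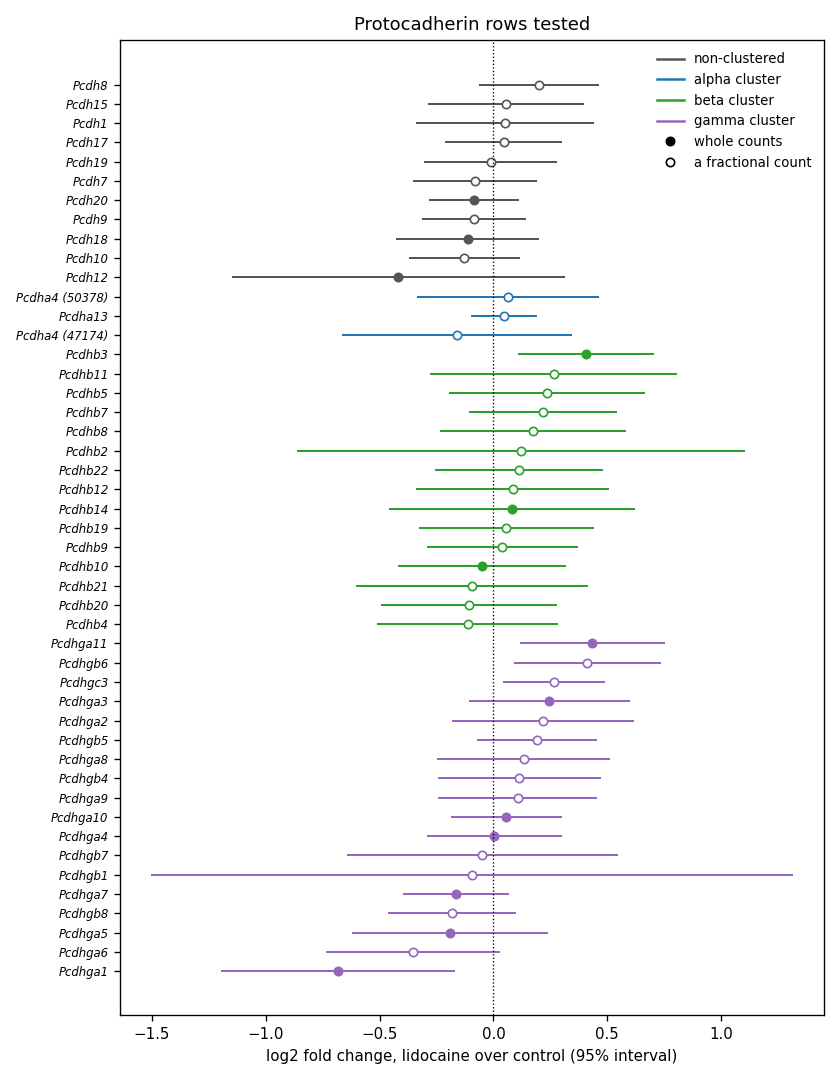
Log2 fold change of lidocaine over control for the 47 tested protocadherin rows, with 95% intervals from edgeR and the dotted line at 0. Filled points had whole counts in all libraries and open points a fractional count; the intervals of Pcdhb3, Pcdhga11, Pcdhgb6, Pcdhgc3 and Pcdhga1 leave out 0, and 0 rows passed after adjustment over all genes.

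Genes that act with protocadherins, and cadherins of other families with their catenins, were taken as 4 lists. In these lists, 0 genes were called in either direction or had an unadjusted edgeR p under 0.05. Of all tested genes, 0.0149% were called and 4.36% had such a p. Among genes of promoter choice and chromatin looping, 3 of 16 tested had positive and 13 negative fold changes, with a median log2 fold change of -0.02. Those with the smallest p were Dnmt1, the maintenance DNA methyltransferase, at 0.15 ± 0.07 and the cohesin subunit Stag2 at -0.14 ± 0.08. Ctcf, which binds protocadherin promoters, averaged 36.3 ± 4.19 CPM in lidocaine and 36.3 ± 10.6 CPM in control libraries (SD, n = 3 each), with a log2 fold change of 0.00 ± 0.22.

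Among 21 genes of surface cleavage and signalling, 13 were positive and 8 negative, with a median of 0.02. These include Adam10, a protease that cleaves protocadherins, and the WAVE complex of actin assembly. Cyfip2, a WAVE complex subunit counted at 0.75 to 3.04 CPM in lidocaine and 0 to 1.7 CPM in control libraries, had a log2 fold change of 1.25 ± 1.06. Of 19 classical and type II cadherins and catenins, 6 were positive and 13 negative, with a median of -0.05. Cdh9, a type II cadherin of mossy fibre synapses in mice, had 0.19 ± 0.08 and Cdh22 -0.21 ± 0.11. N-cadherin, Cdh2, had -0.04 ± 0.06.

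All 12 tested genes of the list of Fat, Dachsous, Celsr and other large cadherins had positive fold changes, with a median of 0.06. Of all tested genes, 49.9% had a positive one. The sign counts of the 4 lists are a description and were not tested. The calsyntenins Clstn2 and Clstn3, synaptic cadherin-like proteins, had the smallest p in that list, with log2 fold changes of 0.17 ± 0.12 and 0.07 ± 0.06. Summed levels of the list overlapped, at 3788, 4050.3 and 4129 CPM in lidocaine and 3656, 3952 and 3830.4 CPM in control libraries.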

How the data were processed

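Hippocampal RNA in 3 lidocaine and 3 control libraries was analysed from 1 deposited table. A SMARTer mRNA kit was used for the libraries, per the labels' protocols. The build mm10 is named in the submitters' processing notes, while the row identifiers are of the rat; no aligner, counter or annotation is named there. The deposited estimated counts carry no normalisation, per the file headers and values, and 30.4% of rows hold a fractional one. Deposited FPKM values, per the file headers, are corrected for transcript length and library depth. Columns were matched to titles by group initial and number.

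Estimated counts were rounded, filtered with filterByExpr (13408 genes left), scaled by TMM and tested with edgeR 4.0.16 in R 4.3.3 (quasi-likelihood F-test, robust, two-sided, Benjamini-Hochberg over all genes). Standard errors come from the F statistic. CPM uses the total of deposited counts. DESeq2 1.42.0 and limma 3.58.1 were alternatives. The test was tried on simulated data. No library pair agreed within sampling noise, with a chi-square of 10.02 to 17.7 per degree of freedom. With 3 libraries per group an exact permutation test cannot give p under 0.1.

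The members and lists were chosen with earlier results of these data known. Named were all tested non-clustered members, per cluster the 3 tested members highest in CPM and the 2 with the smallest p, and per list the 2 genes with the smallest p. A gene that this rule names is not reported here. Other named genes, Pcdhgb6 and Pcdhb5 among them, were chosen after their values were seen.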

Additional observations from a re-analysis of the deposited data

How the results depend on the processing

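No protocadherin was called under any of the 16 alternatives run, and the smallest adjusted p of a member was 0.793, for Pcdhga11 in edgeR with whole-count genes alone. Over all genes, calls were 0 higher and 2 lower. DESeq2 called 14 higher and 9 lower, limma on log2(FPKM + 0.1) called 1 and 4, whole-count genes alone gave 0 lower, and leaving out 1 library gave 0 to 1 higher and 0 to 6 lower. Members at an unadjusted p under 0.05, 4 higher and 1 lower in edgeR, were 2 higher with whole-count genes alone, and 2 to 4 higher and 0 to 4 lower with 1 library left out. The 2 higher came without lidocaine library 3 or control library 3. Lower members numbered 2 without lidocaine library 1, 0 without lidocaine library 2, 3 without lidocaine library 3, 4 without control library 1 and 0 without control library 2. With 1 library left out the median log2 fold change was -0.052 to 0.073 for alpha and -0.0022 to 0.20 for beta rows, each lowest without lidocaine library 1 and highest without lidocaine library 2, and 0.031 to 0.12 for gamma rows, lowest without control library 3. The gamma median was 0.0026 with whole-count genes alone, against 0.08, and that of non-clustered rows was -0.090 to -0.016 with 1 library left out, the -0.016 without control library 1. The summed log2 ratio of non-clustered rows was -0.089 over members with whole counts, against -0.02, and -0.06 to 0.0038 with 1 library left out, the 0.0038 without lidocaine library 2. Over members with whole counts it was 0.17 for beta, against 0.10, and -0.0013 for gamma, against 0.05. The alpha ratio was lowest, at 0.0093, without control library 1, and the beta ratio ran from 0.04 without lidocaine library 1 to 0.17 without lidocaine library 2.

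Of 26 named members, 16 kept the sign of the fold change throughout and 10 turned, 9 of them only when 1 library was left out. Pcdh19 turned to 0.0025 with limma-voom and to 0.023 and 0.025 with limma on log2(FPKM + 1) and log2(FPKM + 0.1). With 1 library left out, log2 fold changes were -0.15 to 0.083 for Pcdh19, -0.16 to 0.0053 for Pcdh9, -0.17 to 0.018 for Pcdh7, -0.069 to 0.12 for Pcdh17, -0.062 to 0.21 for Pcdh1 and -0.033 to 0.18 for Pcdh15. They were -0.052 to 0.18 for Pcdha4 (ENSRNOG00000050378), -0.056 to 0.20 for Pcdhb19, -0.012 to 0.21 for Pcdhb22 and -0.059 to 0.13 for Pcdhb9. Several members that kept their sign also moved widely, with -0.34 to -0.0017 for Pcdha4 (ENSRNOG00000047174), -0.17 to -0.029 for Pcdh20, -0.22 to -0.022 for Pcdh10, 0.092 to 0.27 for Pcdh8, 0.068 to 0.36 for Pcdhga2 and 0.091 to 0.32 for Pcdhb5. The cause was not tested.

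With the replicate number as a replicate block, 0 genes were called lower, and 5 members were higher and 1 lower at an unadjusted p under 0.05, while Pcdh19 stood at 0.0029. The member added there was Pcdh8, with an unadjusted edgeR p of 0.0147. Same-numbered libraries correlated at 0.023 to 0.092 in their deviations from group means, all under the 0.1 required to take the numbers as pairs. As a hint from the data, 5 of 6 libraries correlated best with their own number. With 3 libraries per group, 30 of 47 members had an interval within 1.5-fold.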
